A study of Mus musculus with 8 samples.

Results

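The clustered protocadherin genes form 3 neighbouring arrays, alpha, beta and gamma, on mouse chromosome 18. All genes whose GENCODE symbol begins with Pcdha, Pcdhb or Pcdhg on that chromosome were taken, which gave 58 genes among the 20502 promoters that could be tested. They comprise 12 alpha genes, 22 beta genes, 12 gamma A genes, 7 gamma B genes and 5 C-type genes (Pcdhac1, Pcdhac2, Pcdhgc3, Pcdhgc4 and Pcdhgc5). All 58 are read from the plus strand, and together they span chr18:36930184-37841873 of build GRCm38, which is 911.69 kb. One of them, Pcdhgb8, is annotated as a polymorphic pseudogene, and GENCODE gives the symbol Pcdha11 to 2 genes, of which the one that RefSeq calls Pcdha10 is named so here.

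Methylation of CpG sites was measured genome-wide by oxidative bisulfite sequencing, in which converted unmethylated cytosines are read as T. The labels describe the oxidation as removing the signal of hydroxymethylated cytosine, whereas the study's methods state that both modified forms are read, so a level may include both. The cells were resting CD43- B cells and naive CD4+ T cells, sorted from spleens of C57BL/6J mice aged 6 to 8 weeks, and no group carried a transgene or received a treatment according to the labels. There were 4 groups, B and T cells of females and B and T cells of males, each with 2 samples of cells pooled from several mice and each with 1 file of values. Whether a file holds 1 sample or both is not stated, so each group counts as 1 library and a value has no spread between replicates within its group. Every comparison of B with T cells rests on 2 libraries a side. Where 4 values follow each other below, they are for female B and T cells and then for male B and T cells.

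Clustered protocadherins are cadherin-type adhesion molecules best known from neurons, where each cell transcribes a different small set of them and so acquires its own surface identity. In the alpha and gamma arrays every variable first exon has its own promoter and is spliced to 3 shared constant exons, whereas each beta gene carries its own coding sequence. The promoters of most variable genes carry binding sites of the insulator protein CTCF and a short conserved element with the core CGCT, and their choice is tied to DNA methylation. The C-type genes lie at the ends of the alpha and gamma arrays and are known in the brain for a steadier, less random expression than the variable genes. RNA was not analysed here, so nothing below concerns expression.

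The libraries held 280919817 to 354634149 reads at CpGs, with a median of 14 to 17 reads at an autosomal CpG, and the male B cell library was the shallowest. On the autosomes 80.3% and 81.1% of reads were methylated in the B cell libraries and 78.6% and 78.9% in the T cell libraries, in females and males respectively. On mitochondrial DNA the methylated share was 0.271% and 0.727% in B cells against 0.0733% and 0.0709% in T cells. Small differences in the same direction below stand beside these shares, whose part in them was not tested. The cell labels held: the promoters of all 10 B cell marker genes were lower in B cells and those of all 10 T cell marker genes were higher in B cells (edgeR, adjusted p under 0.05), and 8 and 10 of them also differed by at least 20 percentage points.

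The promoter of a gene was taken as 1 kb on either side of its start, and its level as the share of methylated reads summed over the CpGs listed in all 4 libraries. Averaged over this window, most clustered protocadherin promoters were neither methylated nor unmethylated. The window joins lower levels near the start with higher ones further into the first exon. The count that follows was not repeated with 500 bases on either side, where the gamma A and gamma B medians were 39.4% and 40.9%. For 50 of the 58 genes (86.2%) the mean of the 4 library levels lay between 40% and 70%, compared with 6.37% of all 20502 tested promoters. These 50 genes made up 3.83% of the 1307 promoters in that range. The 8 genes outside it were the 5 C-type genes, Pcdhb12 and Pcdhb19 above it and Pcdhgb6 below it. The median promoter level over the 58 genes was 58.4% and 55.8% in B and T cells of females and 56.5% and 55.4% in those of males, whereas the median over all tested promoters was 11.5% to 14.3%.

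**Figure D1:**
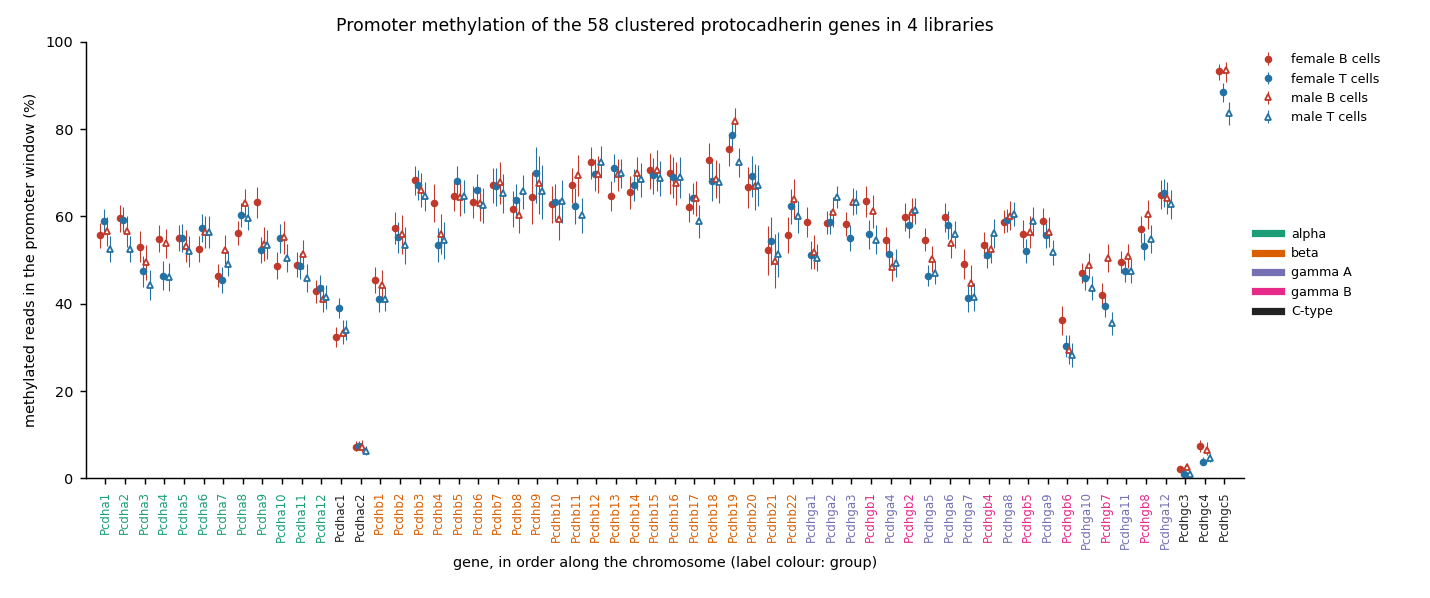
Share of methylated reads (%) in the window of 1 kb on either side of the start of each of the 58 genes, in order along the chromosome, with 1 point a library and 95% Wilson intervals, which cover counting error only. Alpha, beta and gamma promoters sit at 28.2% to 81.8% in all 4 libraries, whereas Pcdhac2, Pcdhgc3 and Pcdhgc4 lie below 10% and Pcdhgc5 above 80%.

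The arrays differed in level. The 22 beta promoters had the highest median in every library, at 64.8%, 67.1%, 66.6% and 65.0%. Alpha promoters had medians of 54.0%, 53.6%, 53.8% and 51.3% in the same order. Gamma A promoters had 58.4%, 53.3%, 53.0% and 51.2%, and gamma B promoters 56.0%, 52.0%, 56.5% and 54.8%. As means of the library medians these values were 65.9% ± 1.14 (SD over 4 libraries) for beta, 54.8% ± 2.02 for gamma B, 54.0% ± 3.11 for gamma A and 53.2% ± 1.29 for alpha. The last 3 overlapped in their library values, while beta stood above each of them by more than that spread. The C-type group was lowest in every library, with a median of 7.09% ± 0.543. With 500 bases on either side of the start, beta and alpha lay closer (53.2% and 48.3%), and gamma A and gamma B lower (39.4% and 40.9%).

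Levels varied within each array. Among the alpha genes Pcdha8 was highest, with 56.2%, 60.3%, 63.2% and 59.6% in the 4 libraries. Pcdha2 followed with 59.6%, 59.3%, 56.7% and 52.5%. The lowest alpha promoter was that of Pcdha12, the last variable gene of its array, at 42.8%, 43.5%, 41.2% and 41.4%, and Pcdha7 came next at 46.4%, 45.4%, 52.4% and 49.2%. All 4 levels of Pcdha12 lay below all 4 levels of each of these 3 genes.

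Among the beta genes Pcdhb19 had the highest promoter level, 75.5%, 78.7%, 81.8% and 72.5% in the same order of libraries, and Pcdhb12 the next, 72.4%, 69.7%, 69.7% and 72.5%. Pcdhb1, which lies apart at the upstream end of the array, was lowest at 45.4%, 41.0%, 44.2% and 41.1%. Pcdhb21 followed at 52.3%, 54.5%, 49.8% and 51.4%, on 17 CpGs. The remaining beta promoters had means between 55.5% and 69.9%.

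In the gamma array Pcdhga12 was the highest A-type promoter, at 65.0%, 65.5%, 64.3% and 62.8%, followed by Pcdhga2 at 58.6%, 58.7%, 61.0% and 64.5%. Pcdhga7 was lowest, at 49.2%, 41.4%, 44.8% and 41.5%, and Pcdhga10 next, at 47.0%, 45.8%, 48.8% and 43.6%. The B-type genes reached further down. Pcdhgb6 had the lowest level of any variable promoter, 36.2%, 30.2%, 29.4% and 28.2%, and Pcdhgb7 stood at 42.0%, 39.5%, 50.4% and 35.6%. The highest B-type promoters were those of Pcdhgb2, at 59.9%, 58.1%, 61.0% and 61.4%, and Pcdhgb1, at 63.5%, 56.0%, 61.2% and 54.7%.

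Levels of the promoters were related between libraries. Across the 53 variable genes, levels in female and male T cells were related with Pearson's r of 0.948 and Spearman's rho of 0.931, and in female and male B cells with 0.891 and 0.884. Between cell types r was 0.903 in females and 0.927 in males. These values include the gap between the arrays. Within single arrays, over the same 4 pairs of libraries, r was 0.585 to 0.978, lowest between female B and T cells in the alpha genes, and rho was 0.536 to 1, lowest between male B and T cells in the 7 gamma B genes. These values are descriptions across genes that share libraries and genome sequence and carry no p. For 33 of the 58 promoters all 4 Wilson intervals, which cover counting error only, shared a value. The range over the 4 libraries had a median of 5.45 points and was widest, at 14.9 points, for Pcdhgb7.

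Levels changed close to the start. In bins of 200 bp, beta promoters fell to a median of 24.6% just before the start (−200 to −1, 18 genes with CpGs there), as a mean of the 4 library medians, and gamma B promoters fell to 19.4% in the same bin (7 genes). Gamma A promoters were lowest, at 32.6%, in the bin directly after the start (11 genes), with the same value before it. Alpha promoters showed a shallower and later minimum of 39.6% in the bin that begins 400 bp after the start (12 genes). In the bin from 800 bp on the medians stood at 75.1% for alpha, 80.8% for beta, 77.6% for gamma A and 76.8% for gamma B genes, inside the first exon. In the minimum bins B and T cells had 25.4% and 23.9% for beta, 21.0% and 17.9% for gamma B, 34.2% and 31.0% for gamma A and 41.9% and 37.3% for alpha genes.

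**Figure D2:**
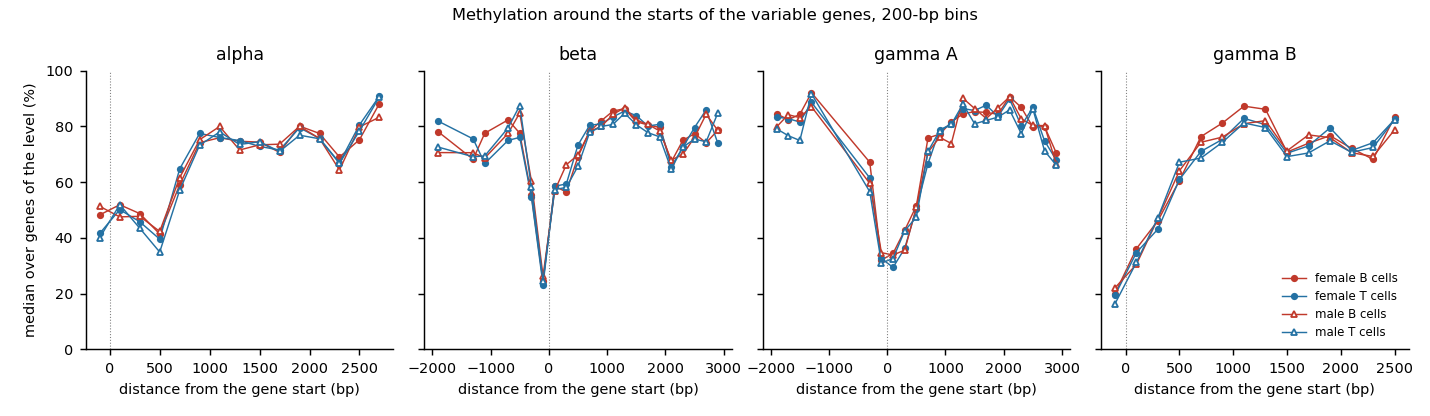
Median over genes of the methylation level (%) in bins of 200 bp against distance from the gene start (bp) for alpha, beta, gamma A and gamma B genes, with 1 line a library and bins with at least 5 genes only. The lines of the 4 libraries run together and dip near the start, to 24.6% for beta and 19.4% for gamma B genes as a mean over libraries.

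Single CpGs of these windows had intermediate levels too. Of the 2232 CpGs in these windows with at least 10 reads in every library, 61.4% had a mean level between 20% and 80%, whereas this was 8.72% of 857122 CpGs in all tested promoters. The share was 79.2% for alpha, 74.9% for gamma A, 63.5% for gamma B and 55.0% for beta genes. It was 16.0% for the C-type genes, of whose CpGs 76.1% were under 20%. In single libraries the share over all 58 genes ranged from 58.4% to 59.5%. A level between the extremes in a pool of cells cannot tell apart a CpG methylated in some cells from one methylated on some alleles.

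**Figure D3:**
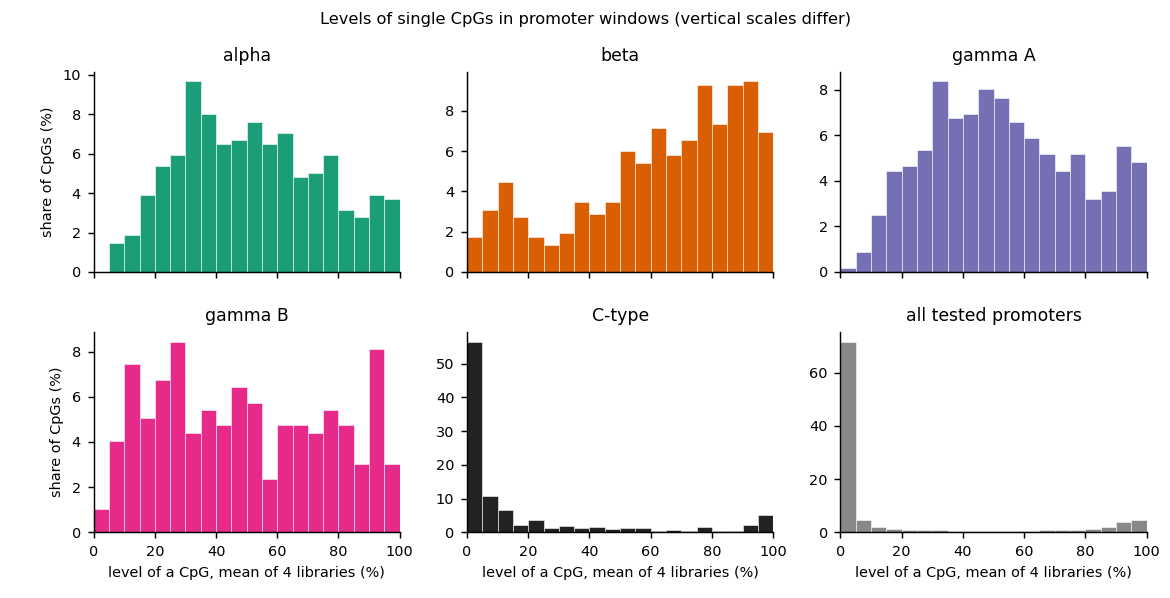
Share of CpGs (%) by methylation level (mean of 4 libraries, in bins of 5 percentage points) in the promoter windows of each group and of all tested promoters, with vertical scales that differ between panels. Alpha, gamma A and gamma B CpGs spread over low, middle and high levels, beta CpGs lean to high levels, and C-type CpGs and those of all tested promoters pile up under 5%.

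The windows also differed in sequence composition. Beta windows held a median of 28.5 CpGs in the reference (range 11 to 53), against 54 for alpha, 52.5 for gamma A, 55 for gamma B and 71 for C-type genes and 66 for all tested promoters. Across the 53 variable genes the promoter level fell with the number of CpGs (r = −0.662, rho = −0.685), and within single arrays r was −0.159 for alpha, −0.380 for beta, −0.386 for gamma A and −0.517 for gamma B genes. At least 87.5% of the CpGs of each window were listed in all 4 libraries, and reads per CpG were 0.990 to 1.37 times the library median. First exons of one array resemble each other, with a best match to another member of 77.9% to 85.6% identity for alpha genes and up to 88.8% for beta genes, so some reads may have been placed on the wrong member or left out.

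A strict form of the CTCF motif (CCA, 2 free bases, AG, 2 free bases and GGC, on either strand) was found in the windows of 7 of 12 alpha genes (Pcdha1, Pcdha4, Pcdha6, Pcdha7, Pcdha8, Pcdha9 and Pcdha12), 1 of 12 gamma A genes (Pcdhga2) and Pcdhac2, and in none of the 22 beta or 7 gamma B windows. Over all tested promoters 13.8% held it. The letters CGCT on the gene's own strand occurred in all 58 windows and in 18150 of the 20502 tested promoters. Both are matches of letters and say nothing of binding.

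First exons were, by group median, more methylated than the promoter windows. In 56 of the 58 genes the first exon held at least 5 CpGs, while the annotated first exons of Pcdhb6 (142 bp) and Pcdhb8 (185 bp) held 4 and were not tested. Median levels, as means of the library medians, were 66.7% ± 0.965 (SD over 4 libraries) for alpha, 73.2% ± 1.26 for beta, 66.7% ± 1.75 for gamma A, 69.2% ± 1.27 for gamma B and 48.4% ± 1.51 for C-type genes, against 0.548% for all 14437 tested first exons. The sets are unlike, since the 56 exons held a median of 94.5 CpGs, against 20 over all tested first exons. The part of this in the gap was not tested, and the same limit holds for the shares of first exons given below. Among the tested first exons of each of the alpha, beta, gamma A and gamma B groups, the most methylated were those of Pcdha6 (mean 75.5%), Pcdhb16 (80.9%), Pcdhga2 (75.1%) and Pcdhgb8 (79.7%). The least methylated of each of these groups were those of Pcdha12 (56.5%), Pcdhb1 (57.6%), Pcdhga10 (54.4%) and Pcdhgb7 (56.8%). Promoter and first exon share up to 1 kb, and their levels were related across the 51 variable genes tested in both with r = 0.754.

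Of the 5 C-type genes, Pcdhgc3, Pcdhgc4 and Pcdhac2 lay below every variable promoter in each library and Pcdhgc5 above every one. Pcdhgc3, which starts at 37806364, was almost unmethylated, with promoter levels of 2.12%, 0.947%, 2.69% and 1.10% in the 4 libraries over 113 CpGs. Pcdhgc4, at 37815079, had 7.38%, 3.82%, 6.59% and 4.66%. Pcdhac2, at 37143503 in the alpha array, had 7.31%, 7.41%, 7.27% and 6.28%. Pcdhac1, at 37090013, stood in between at 32.4%, 39.0%, 33.4% and 34.1%, below all alpha promoters in every library. Its mean of 34.7% was inside the range of the variable promoters, since that of Pcdhgb6 was 31.0%. Pcdhgc5, the last gene of the gamma array, at 37819513, was the most methylated of all 58 promoters at 93.3%, 88.5%, 93.5% and 83.8%.

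In Pcdhgc3, Pcdhgc4 and Pcdhac2 a stretch of low methylation at the start ended inside the first exon. For Pcdhgc3 the level was 0.451% over the first 500 bp after the start, as a mean of the 4 libraries, 9.11% over the 500 bp from 1000 bp on, 42.9% over those from 2000 bp on and 71.2% from 2500 bp on. Pcdhgc4 rose sooner, from 0.459% over the first 500 bp to 77.1% from 1000 bp on and 94.6% from 1500 bp on. Pcdhac2 went from 4.58% over the first 500 bp to 24.1% from 1000 bp on and 86.6% from 2000 bp on. Pcdhac1 was lowest at 13.6% over the 500 bp before its start and reached 26.1% over the first 500 bp and 52.0% over the 500 bp from 500 bp on. Pcdhgc5 was methylated throughout, at 62.3% over the 500 bp before its start and 90.6% over the first 500 bp after it. Over whole first exons the means were 12.8% for Pcdhgc3, 24.2% for Pcdhac2, 48.5% for Pcdhac1, 52.6% for Pcdhgc4 and 94.4% for Pcdhgc5.

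Pcdhgc5 dipped before its start. In the 500 bp before it, on 7 CpGs with at least 63 reads in a library, the levels were 80.4%, 56.7%, 68.3% and 43.8%. Both B cell levels were above both T cell levels there. Over the first 500 bp after the start they were 93.0%, 87.2%, 97.1% and 85.3%.

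B and T cells were then compared promoter by promoter with the quasi-likelihood test of edgeR on methylated and unmethylated reads, and a promoter counted as called when its adjusted p was under 0.05 and its difference at least 20 points. None of the 58 promoters was called, against 1.37% of all tested promoters, and 11.2% of the 1307 with a mean level of 40% to 70%. With limma on the logit scale the count was also 0, but no share of all tested promoters called by limma was taken to set beside it. The range of 40% to 70% was set on the mean of B and T cells. It therefore also holds promoters low in 1 cell type and high in the other, such as that of Cd3d (mean 48.4%). The 11.2% is thus not a share among promoters at middle levels in both cell types. The differences of the 58 promoters, B minus T, ran from −3.66 to 8.69 points with a median of 1.28, and the median over all tested promoters was 0.970. Both sexes had the higher level in B cells for 29 of 58 genes (50.0%), which compares with 53.6% of all tested promoters, and both had the higher level in T cells for 11 (19.0%, against 14.9%). At an unadjusted p under 0.05 there were 5 genes, 8.62% of the 58, whereas 30.7% of all promoters passed that limit. The sets are unlike in level, and no share among promoters of like level was taken. A missed threshold on 4 libraries does not show that the levels are the same.

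**Figure D4:**
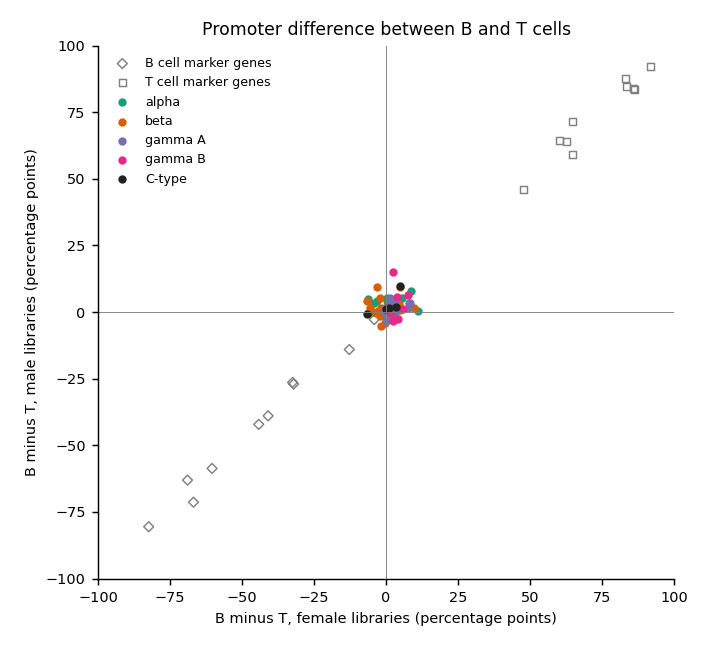
Promoter difference between B and T cells in female libraries (horizontal, percentage points) and in male libraries (vertical) for the 58 genes, coloured by group, and for 10 B cell and 10 T cell marker genes in grey outline. The 58 genes differ by at most 14.9 points in either sex, whereas as a mean of both sexes the T cell markers differ by 46.8 to 92.1 points and the B cell markers by −81.5 to −3.49 points, of which Ebf1 (−3.49) and Pax5 (−13.4) differ by less than 14.9 points in size.

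The 58 promoters had library medians of 55.4% to 58.4%, against 11.5% to 14.3% for all tested promoters. No share among promoters of like level was taken for the next threshold. At an adjusted p under 0.05 with no minimum difference 3 of the 58 promoters passed (5.17%), compared with 19.9% of all tested promoters. All 3 were C-type genes of the gamma array and were higher in B cells, the direction of 17.7% of all tested promoters. Pcdhgc5 was higher by 7.26 points (edgeR, adjusted p = 0.00034), Pcdhgc4 by 2.74 points (adjusted p = 0.045) and Pcdhgc3 by 1.38 points (adjusted p = 0.0088). In each gene both B cell libraries were above both T cell libraries, which is no separate evidence because the genes were picked by this difference. These differences have the sign of the gap in mitochondrial DNA (0.271% and 0.727% in B cells, 0.0733% and 0.0709% in T cells). The part of that gap in them was not tested. With limma none passed (adjusted p = 0.090 for Pcdhgc5, 0.18 for Pcdhgc4 and 0.061 for Pcdhgc3), and with any 1 library left out none passed either (0.139 to 0.333, 0.248 to 0.542 and 0.0765 to 0.420, in the same order), in fits of 3 libraries with 1 residual degree of freedom. The differences were then 4.88 to 9.64, 2.32 to 3.16 and 1.10 to 1.66 points. The sizes moved with the window and the read minimum: Pcdhgc5 differed by 14.6 points with 500 bases on either side, 3.97 with 2 kb and 4.31 with at least 10 reads per CpG, and passed in each. With 500 bases and 2 kb Pcdhgc4 gave 0.685 and 2.93 points (adjusted p = 0.29 and 0.53) and Pcdhgc3 0.841 and 2.19 points (adjusted p = 0.16 and 0.18), and with at least 10 reads Pcdhgc3 gave 0.88 points and passed (adjusted p = 0.012). Pcdhgc4 missed the threshold with at least 10 reads (adjusted p = 0.052) and with CpGs listed in each library on its own (0.066). Pcdhac1 and Pcdhac2 differed by −3.61 and 0.442 points (adjusted p = 0.59 and 0.87). For Pcdhac1 the difference was −1.14 points without female T cells, −6.08 without male T cells and −0.371 with 500 bases on either side.

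The largest differences among variable promoters lay within the arrays and did not pass. Pcdhgb7 was 8.69 points higher in B cells (edgeR, adjusted p = 0.12), by 2.51 points in females and 14.9 in males. The difference was 4.47 points without the male B cell library, 6.73 without male T cells, 10.7 without female T cells and 12.9 without female B cells. Pcdha4 was 8.12 points higher (adjusted p = 0.14), at 54.9% and 53.9% in B cells and 46.4% and 46.2% in T cells, with no overlap between cell types. The largest difference in the other direction was that of Pcdhb8, at −3.66 points (adjusted p = 0.54), with 61.8% and 60.3% in B cells and 63.7% and 65.8% in T cells. With 2 kb on either side the differences were 5.01 points for Pcdha4 and −1.67 for Pcdhb8, and with 500 bases that of Pcdhb8 was −2.20. Median differences by group were 1.35 points for alpha, −0.0749 for beta, 2.19 for gamma A, 3.61 for gamma B and 1.38 for C-type genes.

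Among first exons 0 of 56 were called, compared with 0.7% of all tested first exons and 9.43% of the 403 with a mean level of 40% to 70%, and 0 passed at an adjusted p under 0.05 alone (4.43% of all tested). The range of 40% to 70% was again set on the mean of B and T cells. With limma 0 were called as well, again with no share of all tested first exons beside it. In edgeR 1 passed at an unadjusted p under 0.05 (14.4% of all tested). That one was Pcdhgc3, at 15.2% and 15.3% in B cells and 10.4% and 10.2% in T cells, a difference of 4.97 points (edgeR, adjusted p = 0.051). In the part of this exon beyond 1 kb the difference was 7.57 points (adjusted p = 0.0079 over 1043 such regions). For the whole exon the adjusted p was 0.030 with at least 10 reads per CpG, which passed, 0.66 with limma and 0.381 to 0.910 with 1 library left out, where the difference was 4.89 to 5.05 points. The largest differences were 5.38 points for Pcdhga7 (adjusted p = 0.71) and −2.90 points for Pcdha6 (adjusted p = 0.80). That of Pcdhga7 was 1.07 points beyond 1 kb, and that of Pcdha6 was −1.58 beyond 1 kb, −1.06 without female B cells and −4.74 without male B cells.

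No difference between the sexes was detected in these promoters. Between females and males 0 of 58 promoters were called by edgeR (1.99% of all tested) and 0 by limma, for which no such share was taken. None passed an adjusted p under 0.05 alone (3.31% of all tested and 1.05% of autosomal promoters), and none reached an unadjusted p under 0.05, which 10.3% of all tested promoters did. All 58 genes are autosomal, while the shares of all tested promoters include the X chromosome, and only the 1.05% covers autosomes alone. The lowest adjusted p among the 58 was 0.61. The difference between the B minus T values of females and males was called for 0 of 58 genes and for 0% of all tested promoters, and 0 genes had an unadjusted p under 0.05 (2.26% of all tested). That fit holds no sex term, so differences between the sexes entered its spread (dispersion 0.0699, against 0.0109 with the sex term). A test that called no promoter anywhere says little about these 58.

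The whole locus was finally read in tiles of 1 kb, of which 545 could be tested. Between 40% and 70% methylation lay 22.9% of these tiles, compared with 6.02% of the 1530528 tiles tested genome-wide. Of the 154 tiles in promoter windows 45.5% did so, of the 99 in first exons outside such windows 24.2%, and of the 292 others 10.6%. The median level was 64.9% in promoter windows and 84.8% in the rest of the locus.

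B and T cells differed by at least 20 points with an adjusted p under 0.05 in 3 of the 545 tiles (0.55%; 3.17% of all tested tiles). All 3 were in the gamma array (1.99% of its 151 tiles) and lower in B cells, the direction of 0.812% of all tested tiles. A pair of adjoining tiles at chr18:37786001-37788000 lies between the first exon of Pcdhga12 and the start of Pcdhgc3, in the long intron that the variable gamma transcripts share, 17.5 kb after the former and 18.4 kb before the latter. The first tile had 56.1% and 61.1% in female and male B cells and 92.4% and 89.0% in T cells, a difference of −32.1 points (edgeR, adjusted p = 1.8e-11). The second had 55.1% in female B cells (95% Wilson interval 46.8% to 63.2%) and 26.2% in male B cells (18.7% to 35.5%), against 95.9% and 95.2% in T cells, a difference of −54.9 points (adjusted p = 2.9e-28). The intervals of female and male B cells did not overlap there. They count a read once for each CpG it covers, so they can be too narrow. That difference between the sexes was not tested in tiles. Of the 16 CpGs of both tiles 11 were lower in B cells by at least 20 points, from position 37786709 to 37787708.

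**Figure D5:**
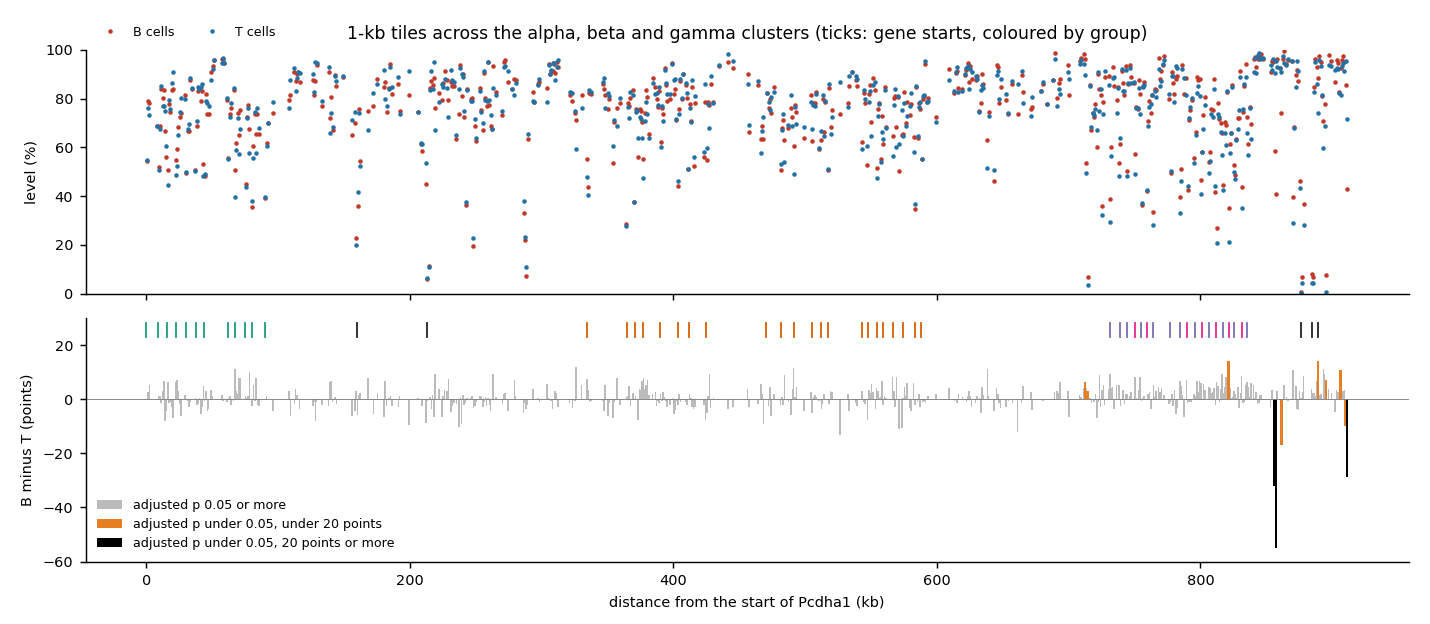
Methylation level (%) of 545 tiles of 1 kb (upper panel, mean of 2 libraries for B and for T cells) and the difference B minus T in percentage points (lower panel) against distance from the start of Pcdha1 in kb, with ticks at gene starts. The 3 called tiles, at −32.1, −54.9 and −28.7 points, lie in the gamma array, as a pair between Pcdhga12 and Pcdhgc3 and 1 tile at the last constant exon.

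The third tile, chr18:37841001-37842000, holds the end of the last constant exon of the gamma array, which is part of every gamma transcript including those of the C-type genes. It had 44.8% and 40.9% in female and male B cells and 70.1% and 73.0% in T cells, a difference of −28.7 points (edgeR, adjusted p = 1.1e-10), and 18 of its 22 CpGs were lower in B cells by at least 20 points. With limma this tile did not pass (adjusted p = 0.094), and both tiles of the pair were called. With any 1 library left out, 3 tiles were called in each case.

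At an adjusted p under 0.05 alone 11 tiles passed (2.02%, against 9.35% of all tested tiles), 9 of them in the gamma array (5.96% of its 151 tiles). Higher in B cells were 6 of the 11, the direction of 7.16% of all tested tiles. A tile at the start of Pcdhgc5 was higher in B cells by 14.3 points (89.1% and 88.0% against 77.7% and 70.9%; adjusted p = 3.7e-05), and a tile at the start of Pcdhgb7 by 14.0 points (31.2% and 39.4% against 24.0% and 18.6%; adjusted p = 0.00031). With limma neither passed (adjusted p = 0.16 and 0.35). The Pcdhgc5 tile passed with each library left out in turn, and differed by 8.35 points with at least 10 reads per CpG, whereas the Pcdhgb7 tile did not pass without male B cells (9.85 points, adjusted p = 0.11) or male T cells (11.3 points, adjusted p = 0.19). Over the 151 gamma tiles the median difference was 2.01 points, compared with −0.327 for alpha, −0.121 for beta and 0.788 for all tested tiles.

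The first constant exon of the gamma array was unmethylated in T cells. The tile that holds it, chr18:37825001-37826000, had 7.94% and 7.41% in female and male B cells and 0.455% and 0.476% in T cells, a difference of 7.21 points (edgeR, adjusted p = 2.2e-06). The other constant exons were methylated, though some held few CpGs. The middle gamma exon had a mean of 93.9% on 1 CpG with as few as 9 reads, and the last one had 66.6%, 79.9%, 65.8% and 88.1% on 36 CpGs. The 3 alpha constant exons had means of 90.7% on 3 CpGs, 93.1% on 1 CpG and 74.3% on 35 CpGs. The first gamma constant exon itself, chr18:37825021-37825079, had 4.92%, 0%, 9.52% and 0% on 5 CpGs with at least 42 reads in a library.

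Low levels were rare among all tested tiles, of which 2.39% had a mean under 20%, promoters included. They were rare too in the locus outside the starts of the 58 genes. Of the 292 tiles that hold neither a promoter window nor a first exon of these genes, 1.03% had a mean under 20%. One was the tile of the constant exon above, one held the start of Taf7 at 5.18%, and one, at chr18:37218001-37219000 between the alpha and beta arrays, had 6.36%, 11.2%, 8.40% and 10.5% in the 4 libraries. The tile before it had 24.4%, 21.9%, 19.3% and 24.7%, and the tile chr18:37178001-37179000, in the intron before the last alpha constant exon, 19.4%, 23.8%, 20.1% and 22.0%. None of these last 3 tiles passed the test between B and T cells (edgeR, adjusted p = 0.24, 0.91 and 0.69).

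The 2 other protein-coding genes inside the locus had levels unlike the variable genes around them. The promoter window of Taf7, a subunit of the general transcription factor TFIID, had 19.1%, 11.5%, 18.4% and 13.2% in the same order and was 6.41 points higher in B cells (edgeR, adjusted p = 0.036; 0.18 with limma and 0.217 to 0.551 with 1 library left out). With 500 bases on either side of its start the difference was 1.09 points (adjusted p = 0.34). Slc25a2, a mitochondrial ornithine carrier, stood at 93.8% to 96.1% in all 4 libraries. Protocadherins outside the arrays were mostly unmethylated: the promoters of 12 such genes had a median of 6.06%, from 0.832% for Pcdh7 to 57.5% for Pcdh12. None of the 12 was called, against 1.37% of all tested promoters, and Pcdh7 was the one to pass an adjusted p under 0.05 alone (19.9% of all tested), higher in B cells by 0.799 points.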

How the data were processed

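The authors deposited, per group and CpG with at least 5 reads, the methylation level as a fraction and its read count, on mm10. The submitters' processing notes name Trim Galore, FastQC and Bismark 0.13.1. Removal of duplicate reads is not given in the sources used here. Methylated reads were recovered from the deposited fractions, which had been rounded up to 3 decimals, and 100% of the levels were recovered within 1e-09. Per promoter, first exon (GENCODE M21) and 1-kb tile, reads of the CpGs common to the 4 libraries were summed. Regions with at least 5 CpGs and 20 reads in every library were tested with edgeR 4.0.16 in R 4.3.3 by quasi-likelihood (terms for library, methylation, cell type and sex on methylation). In the reported fits of cell type and sex the quasi-dispersion was shared by all regions. In the fit of the contrast between the sexes and in promoter and first exon fits with 1 library left out it was estimated per region in part. The p-values were adjusted by Benjamini-Hochberg over all tested promoters, first exons or tiles. The contrast between the sexes of B minus T took the place of the sex term. limma 3.58.1 was used on the logit with 0.5 reads added. The script was tested on simulated data. Wilson intervals (95%) cover counting error only, since reads carry no molecular identifiers. A read counts once for each CpG it covers, so the intervals can be too narrow even for that error. With 1 library a group, the reported p-values set a difference against counting error and a spread shared by all regions. They do not use the spread of a region's own libraries. On chromosome 18, all 705058 listed positions were on a CG of the reference (GRCm38.p6, RefSeq), 97.7% of its CGs. Identity between first exons came from blastn 2.17.0 over at least 500 aligned bases. Members, lists and windows were chosen with earlier results of these data known. The text names every C-type gene, the 2 highest and 2 lowest promoters and the highest and lowest first exon of each array, the largest differences in each direction and fixed lists (other protocadherins, regulators, and B cell, T cell and neuron markers). Pcdha4 and the tiles described one by one were chosen after their values were seen. No sequence of these genes is printed.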

Additional observations from a re-analysis of the deposited data

How the results depend on the processing

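No promoter or first exon of the 58 genes was called under any alternative that kept the minimum difference of 20 points: at least 10 reads per CpG, CpGs listed in each library on its own, no filter, limma, windows of 500 bases or 2 kb on either side, the first exon beyond 1 kb, or leaving out each library (0 to 0 for promoters, first exons and the comparison of the sexes). Shares of all tested regions called under these alternatives were not taken, so these counts of 0 have no share beside them. Without the minimum difference the count of promoters was 3 and that of tiles 11. The count of called tiles was 3 as reported, 2 with at least 10 reads per CpG (fewer tiles were tested), 2 with limma and 3 to 3 with 1 library left out. Median promoter levels moved with the window. With 500 bases on either side they were 48.3% for alpha, 53.2% for beta, 39.4% for gamma A, 40.9% for gamma B and 6.08% for C-type genes. Over first exons they were 66.7%, 73.2%, 66.7%, 69.2% and 48.4%. The unweighted mean of CpG levels gave 64.5% for beta. Beta stayed highest and C-type lowest in each of these. With 1 library left out the medians ranged from 52.9% to 53.8% for alpha, 65.5% to 66.2% for beta, 52.5% to 54.9% for gamma A, 54.3% to 55.8% for gamma B and 6.98% to 7.36% for C-type genes. The signs of differences were followed for 9 promoters, that of Taf7 included, and 7 first exons only, not for all 58 genes. Among these, differences that did not pass changed sign in a few cases: the Pcdhac2 promoter gave −0.588 points with 500 bases and −0.126 to 1.01 with 1 library left out, the Pcdhac2 first exon −2.52 beyond 1 kb and −0.559 to 2.06 with 1 left out, the Pcdhac1 first exon 2.06 beyond 1 kb and the Pcdhgc4 first exon −0.371 to 5.89 with 1 left out. Fits on 3 libraries hold no sex term and leave 1 residual degree of freedom. No paired analysis was possible because the groups share no replicate number. Depth limits single CpGs most, at a median of 14 to 17 reads.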

Other observations

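Promoters of 23 genes that act on these arrays or on DNA methylation in general (CTCF, cohesin subunits and loaders, Smchd1 and its partner Lrif1, DNA methyltransferases and others) had a median level of 6.49%. None was called between B and T cells (1.37% of all tested promoters), and 7 passed an adjusted p under 0.05 alone, all higher in B cells (edgeR; 19.9% of all tested promoters). The largest of these was Wiz, a zinc finger partner of histone H3 lysine methyltransferases, at 11.3% and 18.3% in female and male B cells and 6.11% and 7.97% in T cells. Ctcf itself stood at 0.0422% to 0.480%. Stag1, Dnmt1 and Trim28 lay between 86.5% and 93.9% in all 4 libraries, in the window around the annotated gene start.

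Of 8 neuronal marker genes 0 passed an adjusted p under 0.05 (19.9% of all tested promoters), and their median level was 12.0%. Rbfox3, a neuronal splicing factor, was highest at 77.6% to 80.3%, and 6 autosomal genes (Syt1, Snap25, Tubb3, Map2, Nefl and Stmn2) lay between 2.81% and 19.1% in every library.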
